A study of Mus musculus with 6 samples.

Results

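Wnt10a and Wnt10b are 2 of the 19 Wnt ligand genes in a table of 19423 protein-coding genes measured by RNA sequencing of mouse ovaries. They were found by gene symbol, and their transcripts by gene number. Both were chosen by their log2 fold changes in the same comparison, which earlier results had shown to be far below 0. Their tumor and control values are therefore a description, and no test of them is given. The study, which by its title concerns follicle loss under oxidative stress from breast tumors, compared ovaries on day 80. The 3 tumor samples, numbered 1 to 3, came from mice injected under the skin with a line that the labels call MBA-MD-231. Their treatment labels end in 231, 232 and 233, although all 3 carry 1 cell line label. The 3 control samples, also numbered 1 to 3, carry only the label Control, and whether they received a mock injection is not given in the sources used here. All 6 samples were of balb/c-nude mice, an athymic strain that accepts human cells, so even the controls lack most T cells. The age of the mice, their estrous stage and the animals or litters behind each library are not given either, and p-values measure only the spread between these libraries.

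Wnt proteins are secreted, lipid-modified signals that act over short distances. They bind Frizzled receptors together with the co-receptors Lrp5 and Lrp6, which stabilizes beta-catenin and lets it act with TCF/LEF factors on target genes, and some Wnts act without beta-catenin. Wnt10a and Wnt10b are close relatives usually placed in the beta-catenin branch. Wnt10a is known for its role in teeth, hair and skin, and Wnt10b for restraining fat cell formation and promoting bone and mammary growth. In the mouse ovary the best-known Wnt is Wnt4, needed for female gonad development and follicle maintenance.

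The coding sequences of the 2 genes are similar but distinct, which bears on whether short reads can be told apart. Wnt10a, gene number 22409, lies on the plus strand at chr1:74788556-74804176 of GRCm38.p6 by the deposited boundaries, while RefSeq starts it at 74792019. Wnt10b, gene number 22410 and also called Wnt12, lies on the minus strand at chr15:98770712-98778206. GENCODE M21 annotates 2 transcripts of Wnt10a and 7 of Wnt10b. The Wnt10a transcript matched to NM_009518.2 has 4 exons with 1254 coding bases. The Wnt10b transcript matched to NM_011718.2 has 5 exons with 1170 coding bases in exons 2 to 5. Aligned to each other, the coding sequences were 68.6% identical over 1158 bases, and no other annotated gene overlapped either transcript. For both genes 60 coding bases are shown around the codon of the serine that carries the lipid, with that codon in capitals. Other stretches of this length were not compared. The Wnt10a stretch is in exon 4 at chr1:74803138-74803197 on the plus strand, and the Wnt10b stretch is in exon 5 at chr15:98772860-98772919 on the minus strand.
Wnt10a: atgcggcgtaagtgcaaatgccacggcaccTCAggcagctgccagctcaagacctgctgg
Wnt10b: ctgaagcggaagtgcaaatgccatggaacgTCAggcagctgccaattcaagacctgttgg
The stretches share 50 of 60 bases, 83.3%, with the serine codon identical. Reads of 50 bases were still specific to a gene. None of the 2465 different 50-base words of the annotated Wnt10a transcripts and none of the 3535 of Wnt10b occurred in any of 141758 transcripts of other genes, and the 2 genes shared none.

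Total estimated counts were 18278614 to 18482073 in tumor libraries and 18804610 to 19238900 in control libraries. A count of 0 allows up to 3 counts, which is 0.156 to 0.164 CPM, counts scaled to library size, and this limit covers counting error only. On the leading principal component of all genes, holding 52.1% of the variance, tumor libraries 2 and 3 stood at 49.6 and 75.1. Tumor library 1 stood at -34.6, beside control libraries at -42.8, -42.1 and -5.23. The second component, with 28.8%, set tumor library 1 apart, at 66.5 against values from -39.8 to 6.25 in the rest. Both genes were nevertheless low in tumor library 1 too, and without it the log2 fold change, tumor over control, was -4.90 for Wnt10a and -7.66 for Wnt10b.

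Wnt10b was abundant among Wnt ligands in control ovaries and nearly undetected in all tumor ovaries. It had 11, 3 and 7 estimated counts in tumor libraries 1, 2 and 3, and 663, 1676 and 777 in control libraries 1, 2 and 3. In FPKM, the authors' measure per transcript length and library size, it stood at 0.22, 0.06 and 0.13 in tumor libraries, against 12.08, 33.03 and 15.00 in control libraries. The groups did not overlap, and the lowest control CPM was 62.7 times the highest tumor CPM. Each tumor library was above the limit that a count of 0 allows except tumor library 2, which stood at it.

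Scaled by library, Wnt10b averaged 0.371 ± 0.206 CPM in tumor and 55.8 ± 29.5 CPM in control ovaries (SD, n = 3 each). Its 3116 control reads and 21 tumor reads, at equal library sizes, make the control level 149.9 times the tumor level, with a 95% counting interval of 97.9 to 242.5 that pools the libraries of a group and covers counting error only, not the spread between libraries. The log2 fold change of the fit over all genes was -7.20 ± 0.61 (SE), tumor over control, the lowest among 15787 genes. The next lowest were Akr1c18, which inactivates progesterone, at -7.15 and Dcpp1 at -6.39. Within the control group Wnt10b varied 2.5-fold, with control library 2 high and libraries 1 and 3 close together.

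Wnt10a was a much scarcer transcript, and its difference rests on fewer reads. It had 2, 0 and 5 counts in tumor libraries, against 103, 21 and 111 in control libraries. In FPKM these were 0.06, 0 and 0.14 in tumor libraries, against 2.80, 0.58 and 3.05 in control libraries. The groups again did not overlap, but control library 2 came close, at 4.12 times the highest tumor library in CPM. Tumor libraries 1 and 2 held no more than 3 counts.

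Wnt10a averaged 0.125 ± 0.138 CPM in tumor and 4.22 ± 2.69 CPM in control ovaries (SD, n = 3 each). Its 235 control reads and 7 tumor reads make the control level 33.9 times the tumor level, with a 95% counting interval of 16.2 to 85.3, again for counting error only, while the control libraries themselves differed 5.32-fold in CPM. The log2 fold change was -5.01 ± 1.04 (SE), tumor over control, the 11th lowest of the 15787. Among all genes tested, 18.4% had every tumor library below every control library, and because the contrast chose these 2 genes nothing is read from their place in that share. In whole ovaries, fewer cells making a transcript and less of it per cell cannot be told apart.

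**Figure D1:**
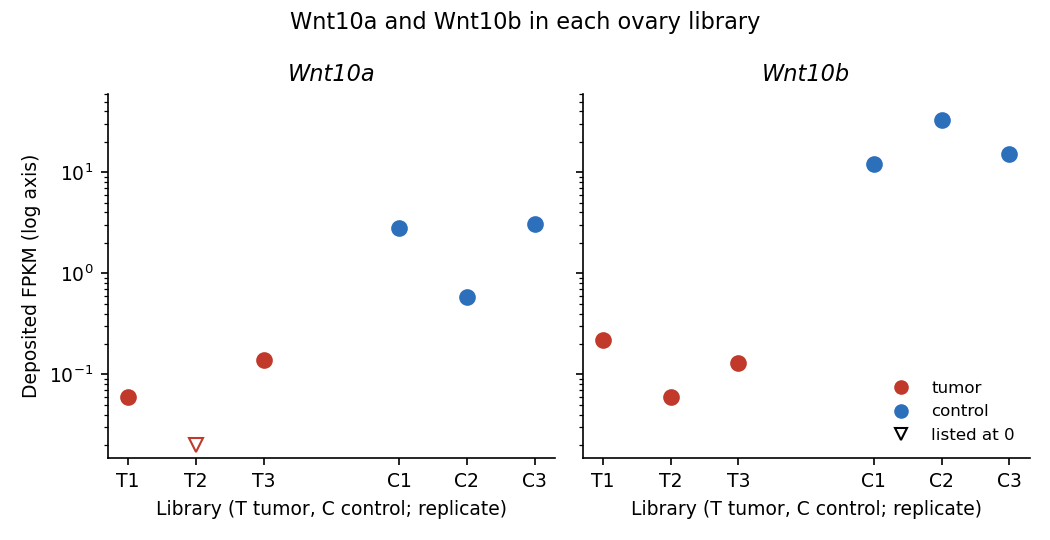
Deposited FPKM (log axis) of Wnt10a and Wnt10b in each library, with tumor libraries T1 to T3 in red left of control libraries C1 to C3 in blue, and an open triangle for a value listed at 0. Tumor libraries lie at or below 0.14 for Wnt10a and 0.22 for Wnt10b, and the lowest control libraries are at 0.58 and 12.08.

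The genes did not order the control libraries alike. Control library 2 had the most Wnt10b and the least Wnt10a, so that Wnt10b exceeded Wnt10a in FPKM by a factor of 56.9 there, against 4.31 and 4.92 in control libraries 1 and 3. In tumor libraries the same ratio was 3.67 in library 1 and 0.929 in library 3, each from 11 or fewer counts of a gene, and in library 2 it could not be formed because Wnt10a was at 0.

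The authors' estimation listed only 1 transcript of Wnt10a, NM_009518.2, so all reads of Wnt10a are given to it. The reads of Wnt10b were divided by the authors' estimation among 4 transcripts. In control libraries 1, 2 and 3, the curated transcript NM_011718.2 took 10.5%, 23.2% and 22.2% of the Wnt10b reads. The predicted transcripts XM_006520891.3, XM_006520892.4 and XM_006520893.2 took 50.2%, 28.0% and 11.3% in control library 1, against 23.5%, 30% and 23.3% in control library 2 and 31.3%, 29.0% and 17.5% in control library 3. All 4 were used in every control library. The tumor reads were too few to divide, with XM_006520893.2 taking all 3 reads in tumor library 2 and XM_006520891.3 taking all 7 in tumor library 3. Transcripts of 1 gene share sequence, and shares estimated from reads of 50 bases are uncertain, so no transcript is read as switched.

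**Figure D2:**
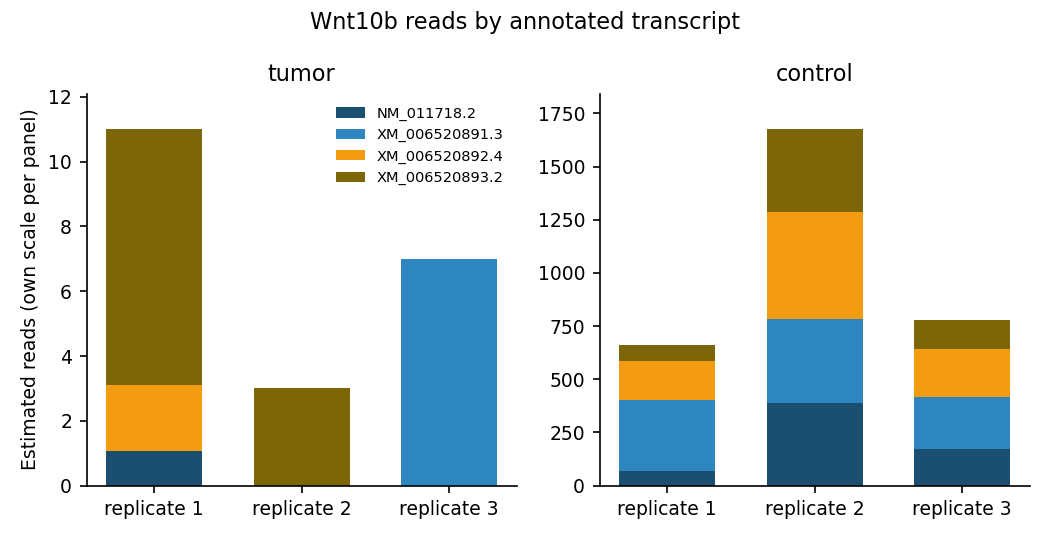
Estimated reads of Wnt10b by annotated transcript (stacked colors) in each tumor library (left panel) and each control library (right panel), each panel with its own vertical scale starting at 0. Tumor totals are 11, 3 and 7 reads and control totals 663, 1676 and 777, with all 4 transcripts used in the control libraries.

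The 194 bases upstream of the deposited boundary of Wnt10b, outside all its deposited transcripts, are shown because Wnt10b was the lowest gene of the comparison. They lie at chr15:98778207-98778400 on the minus strand of GRCm38.p6, from RefSeq, and the capitals mark a run of 11 GT repeats.
Wnt10b upstream: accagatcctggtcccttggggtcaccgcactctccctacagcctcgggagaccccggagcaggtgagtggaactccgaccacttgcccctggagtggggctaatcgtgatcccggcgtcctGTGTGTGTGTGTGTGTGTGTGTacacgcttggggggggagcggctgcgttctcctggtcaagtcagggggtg
The window was 63.9% G and C, against a median of 51.5% over 32851 windows of the same length, and 0.143% of those windows hold a GT repeat this long. Of 7 motifs searched on both strands none was found. These were CTTTGA (in 11.5% of the windows) and CTTTGT (13.2%), which TCF/LEF factors can bind, and CAAGGTCA (1.1%), TGACGTCA (0.752%), TGACTCA (3.44%), CACGTG (4.14%) and GGGCGG (23.6%). An absent match says only that these letters are not in this window. Wnt10a had no upstream sequence in the table used.

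Set among all ligands, the 2 genes had the lowest log2 fold changes of those that could be tested. The same contrast chose them, so nothing is read from that place. The summed FPKM of the 19 ligands was 88.4, 72.3 and 73.8 in tumor libraries, against 154.9, 135.4 and 160.7 in control libraries. Wnt10b made up 0.249%, 0.083% and 0.176% of it in tumor libraries, against 7.80%, 24.4% and 9.34% in control libraries. By FPKM it ranked 12, 13 and 12 among the ligands in tumor libraries, and 4, 1 and 4 in control libraries. Without Wnt10b the sums were 88.2, 72.3 and 73.6 in tumor libraries and 142.8, 102.3 and 145.7 in control libraries. The lower ligand sum of tumor ovaries was thus not a matter of Wnt10b alone.

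Wnt4, the ligand of female gonad development, had the highest control mean of all ligands. It had 18.7, 23.6 and 21.6 FPKM in tumor libraries, against 51.2, 32.1 and 59.2 FPKM in control libraries. It fell in tumor ovaries, with a log2 fold change of -1.22 ± 0.25 (SE) and an adjusted p of 0.0424 in edgeR's quasi-likelihood test with Benjamini-Hochberg adjustment over 15787 genes. Its control library 2 was the lowest of the controls, as for Wnt10a. Across all genes 7.71% passed that test.

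The other ligands did not pass in edgeR with all libraries. Wnt6, whose gene lies next to Wnt10a, had 13.1, 15.9 and 23.5 FPKM in tumor libraries, against 45.1, 19.5 and 48.3 FPKM in control libraries, where library 2 was again low and overlapped the tumor group. Tumor over control it gave -1.17 ± 0.41 on the log2 scale (SE, adjusted p 0.122), and it passed in DESeq2 (adjusted p 0.0165) and in edgeR without control library 2 (adjusted p 0.0358). Wnt5a, a ligand that acts mostly without beta-catenin, had 12.9, 19.4 and 18.5 FPKM in tumor libraries and 18.2, 20.3 and 20.2 FPKM in control libraries, and a log2 fold change of -0.30 that did not pass. Wnt11, Wnt16 and Wnt7b were high in tumor library 1 (13.9, 7.15 and 5.94 FPKM) and at most 1.30 FPKM in tumor libraries 2 and 3. In control libraries they lay between 1.55 and 8.85 FPKM. Oviduct and ciliated epithelium markers were split alike, with summed CPM of 1860, 134.7 and 45.5 in tumor libraries and 2131, 2058 and 472.5 in control libraries. Ovarian surface epithelium markers summed to 524.6, 160.5 and 115.8 CPM in tumor libraries and 515.6, 480.8 and 254.8 CPM in control libraries. Without tumor library 1, Wnt16 gave a log2 fold change of -4.32 and passed (edgeR, adjusted p 0.0352), against -0.80 (adjusted p 0.746) with all libraries. The part of these cell types in the 3 ligands was not tested. Of the 17 other ligands 10 could be tested, and 1 fell and none rose, with a median log2 fold change of -0.26 against -0.02 over all genes. Wnt2, Wnt2b, Wnt5b and Wnt9a had log2 fold changes from -0.23 to 0.36. The remaining 7 (Wnt1, Wnt3, Wnt3a, Wnt7a, Wnt8a, Wnt8b and Wnt9b) were too low to test, at no more than 0.97 FPKM.

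**Figure D3:**
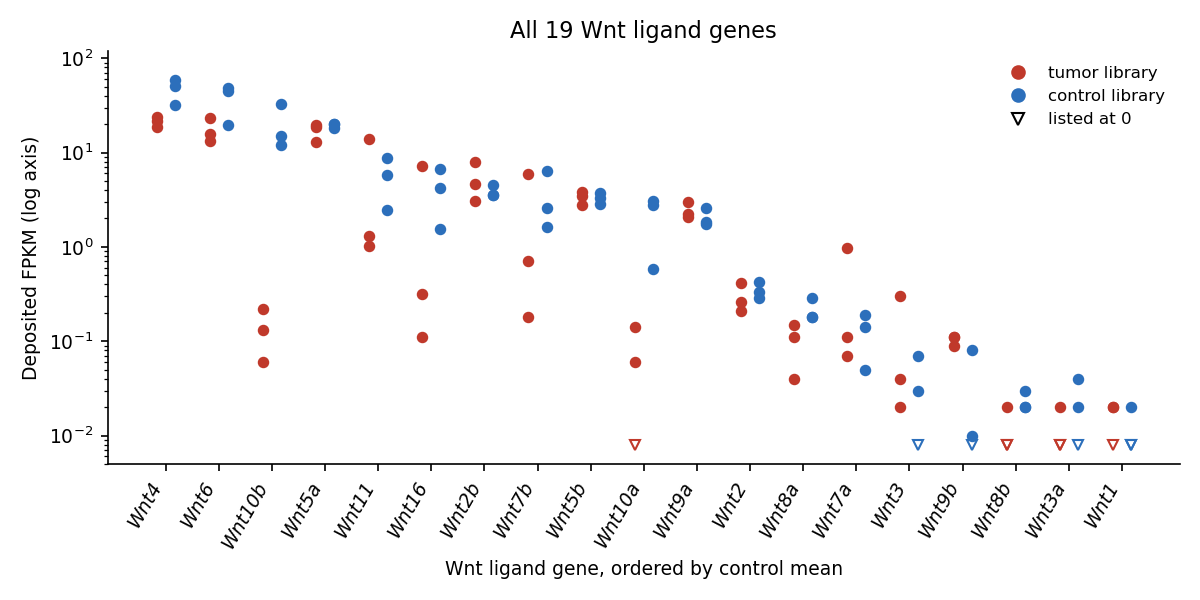
Deposited FPKM (log axis) of the 19 Wnt ligand genes, ordered from left to right by control mean, with tumor libraries in red left of control libraries in blue and open triangles for values listed at 0. Wnt10b has tumor values at or below 0.22.

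Over the rest of the pathway, genes that passed the test went in both directions. The 7 lists, which include the 17 other ligands, held 90 genes, of which 77 were tested, 5 rose and 4 fell, and the median log2 fold change was -0.06. Genes standing in more than 1 list were counted once in this total. No pathway gene passed when tumor library 2 or 3 or control library 1 or 3 was left out, while 17 passed without tumor library 1 and 13 without control library 2. A gene-length correction left 2, DESeq2 gave 14, and the replicate block left none in edgeR. Over all genes, 2605 of 15937 passed without tumor library 1 and 2274 of 16011 without control library 2. The gene-length correction left 127 of 15787, DESeq2 gave 3057 of 15787 and the replicate block left 0. Without tumor library 2 or 3 or control library 1 or 3, 0 to 5 genes passed. The pathway counts thus moved with those of the whole gene set. With all libraries in edgeR, the whole gene set had 3.80% of its tested genes higher and 3.91% lower.

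Among the ligand-processing genes none of 4 passed. Porcn, which attaches the lipid to Wnt proteins, had 13.8, 12.5 and 14.3 CPM in tumor libraries and 21.7, 23.5 and 17.1 CPM in control libraries, a log2 fold change of -0.61 ± 0.16 (SE, adjusted p 0.062). The groups did not overlap, and 18.4% of all tested genes likewise had every tumor library below every control library. Wls, which carries Wnt proteins to the cell surface, stood at -0.31 on the log2 scale (adjusted p 0.243).

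Of 16 receptors and co-receptors 2 rose and 1 fell. Lrp6, the co-receptor, had 112.8, 130.9 and 126.5 CPM in tumor libraries, against 69.0, 85.0 and 83.0 CPM in control libraries (log2 fold change 0.64 ± 0.11 SE, adjusted p 0.0382 in edgeR). Fzd3 also rose (0.57 ± 0.10 SE, adjusted p 0.0385). The receptor that fell was Fzd1, at 37.1, 34.5 and 34.0 CPM in tumor libraries and 116.6, 58.5 and 120.6 CPM in control libraries (-1.49 ± 0.28 SE, adjusted p 0.0398). Its low control library was again library 2. Lrp5 stood at 0.04 on the log2 scale (adjusted p 0.853).

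Among secreted regulators, 1 R-spondin rose and 2 antagonists fell. Rspo2, an R-spondin that keeps Frizzled receptors on the cell surface, had 14.5, 11.5 and 12.2 CPM in tumor libraries and 4.86, 5.67 and 6.19 CPM in control libraries (1.19 ± 0.19 SE, adjusted p 0.0355). It was the only 1 of 8 tested genes of its list to pass. Sfrp4 and Sfrp2, secreted Frizzled-like proteins that bind Wnts, fell. Sfrp4 had 11.8, 26.8 and 21.2 CPM in tumor libraries, against 242.3, 866.4 and 133.4 CPM in control libraries (-4.38 ± 0.83 SE, adjusted p 0.0412). Its highest library was control 2, as for Wnt10b. Sfrp2 had 6.34, 3.04 and 2.56 CPM in tumor libraries and 21.6, 15.9 and 17.3 CPM in control libraries (-2.20 ± 0.38 SE, adjusted p 0.0374). These were 2 of 11 tested antagonists, and the other 9 did not pass.

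Inside the cell, 2 of 20 components rose and none fell. Pygo1, a nuclear partner of beta-catenin, had 33.9, 32.6 and 30.7 CPM in tumor libraries and 19.1, 19.3 and 18.9 CPM in control libraries (0.76 ± 0.09 SE, adjusted p 0.0289). Tcf7l2, a TCF factor, rose by a log2 fold change of 0.53 ± 0.10 (SE, adjusted p 0.0385). None of 15 beta-catenin feedback and target genes passed. Across all tested genes 7.71% passed, so no call among so few is near that share. The 15 had a median log2 fold change of -0.20, against -0.02 over all genes. Axin2, the feedback gene most used as a readout of the pathway, had 61.1, 44.3 and 35.7 CPM in tumor libraries and 67.8, 40.5 and 73.1 CPM in control libraries, with overlapping groups (-0.36 ± 0.29 SE, adjusted p 0.435). Lef1 stood at 0.32 (adjusted p 0.438) and Nkd1 at -0.07 (adjusted p 0.821). A missed threshold does not show that these genes were equal in both groups.

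**Figure D4:**
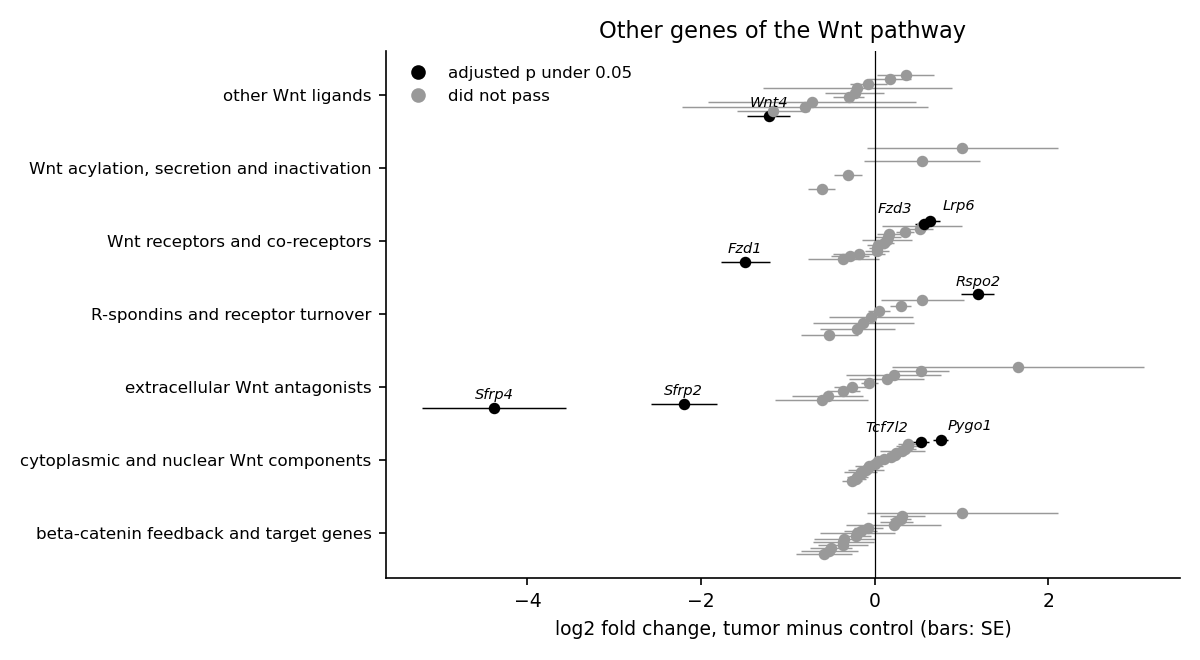
Log2 fold change, tumor minus control, with its SE for each tested gene of the 7 pathway lists, one row per list, with genes of adjusted p under 0.05 in black and named. Wnt4, Fzd1, Sfrp2 and Sfrp4 lie left of 0 and Fzd3, Lrp6, Rspo2, Pygo1 and Tcf7l2 lie right of it, while no target gene is black.

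Both genes sit beside another Wnt gene, and the neighbors did not share their size of difference. Wnt6 lies 3.23 kb from Wnt10a by the deposited boundaries, and farther by the RefSeq start of Wnt10a. The log2 fold change of Wnt6, -1.17, was the lowest of the 5 tested genes within 100 kb. The highest of these was Ttll4 at 0.57, and none of the 5 passed. Wnt1 lies 11.7 kb from Wnt10b and stayed at or under 0.054 CPM in all 6 libraries, below the limit that a count of 0 allows. Of 8 tested neighbors of Wnt10b none passed, and log2 fold changes ran from -1.02 for Fkbp11 (adjusted p 0.0513) to 0.54 for Kmt2d. Arf3, at 7.59 kb the nearest, had -0.03. Over all tested genes 7.71% passed in the same edgeR test, so no call among these few neighbors is near that share.

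**Figure D5:**
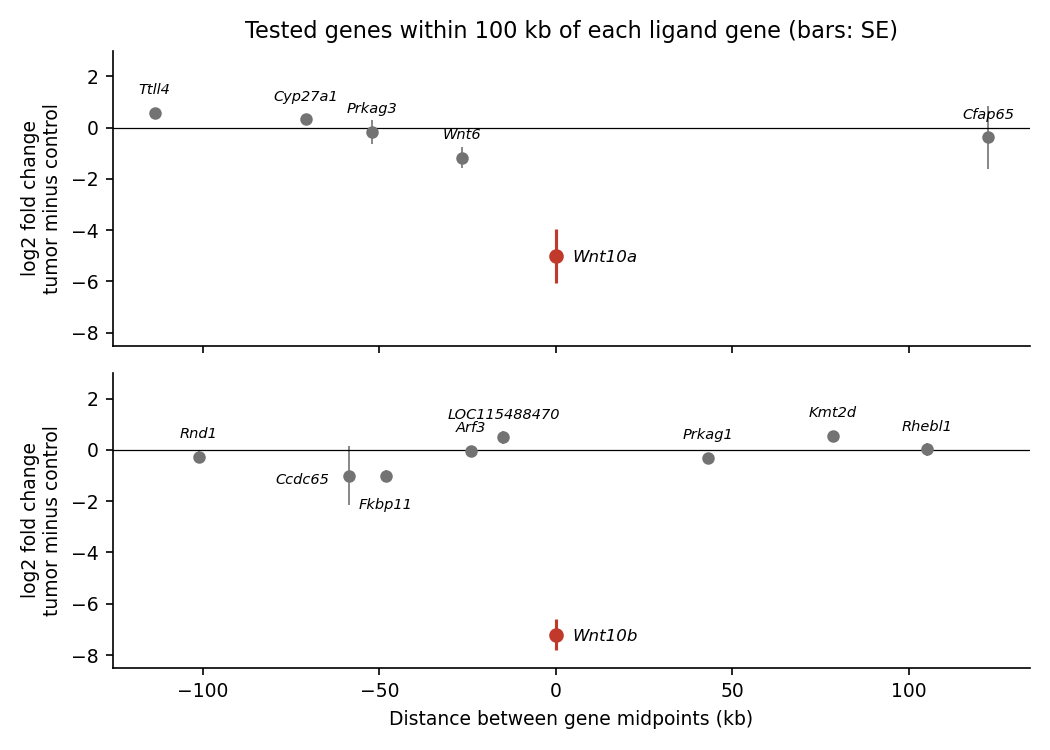
Log2 fold change, tumor minus control, with its SE, of tested genes within 100 kb of Wnt10a (upper panel) and Wnt10b (lower panel), plotted against the distance in kb between gene midpoints. Neighbors lie between -1.17 and 0.57, while Wnt10a and Wnt10b stand at -5.01 and -7.20.

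The genes most like each of the 2 across the 6 libraries were found by Pearson correlation of log2 CPM over 15181 genes. For Wnt10a they were Tmem62, Itga1 (a collagen-binding integrin), Adamtsl4, Tecr (fatty acid elongation) and Gstm4 (a glutathione S-transferase), with r from 0.9940 to 0.9952. For Wnt10b they were Flii, Sgce, Aplp2, Ctsb (a lysosomal protease) and Gm2a (a lysosomal lipid-binding protein), with r from 0.9928 to 0.9989. The likeness is in the shape of the profile and leaves its size free: their log2 fold changes ran from -1.02 to -0.61 for the first set and from -1.87 to -0.29 for the second. With 6 libraries in 2 separate groups such values are easily reached, as 334 genes (2.2%) exceeded 0.95 with Wnt10a and 156 (1.03%) with Wnt10b. Wnt10a and Wnt10b had an r of 0.879 with each other.

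Markers of several cell types differed between the libraries alongside the 2 genes. The summed CPM of 7 theca and luteal markers was 601, 4654 and 5931 in tumor libraries, against 8636, 11326 and 8725 in control libraries. Ptgfr, a luteal prostaglandin receptor, had 5.56, 1.76 and 2.67 CPM in tumor libraries and 30, 71.6 and 27.0 CPM in control libraries. Akr1c18 had 2.96, 1.23 and 0.436 CPM in tumor libraries and 200.1, 417.4 and 47.0 CPM in control libraries. These 2 were the ones of the 7 markers that fell in the edgeR test, and both were highest in control library 2, as was Wnt10b. The other five did not pass, among them Cyp11a1, the first enzyme of steroid synthesis and most of the control sums, at -1.93 on the log2 scale (adjusted p 0.112), and Insl3, a theca hormone, at 0.86 (adjusted p 0.377). Cyp17a1, the theca androgen enzyme, was also highest in that library among controls, with a log2 value of 0.51 (adjusted p 0.899). It had 37.5, 1533 and 2273 CPM in tumor libraries, against 14.3, 2669 and 22.1 CPM in control libraries. Insl3 and Lhcgr were also highest in control library 2 among controls. Star and Cyp11a1 went the other way and were lowest there. In control libraries 1, 2 and 3 Star had 893, 502.7 and 770.6 CPM, and Cyp11a1 had 7326, 6672 and 7637 CPM.

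Smooth muscle markers summed to 1294, 2077 and 1623 CPM in tumor libraries and 2812, 2627 and 2489 CPM in control libraries, and 3 of the 5 fell. Oocyte markers summed to 590.5, 460.9 and 518.4 CPM in tumor libraries and 289.6, 310.0 and 390.4 CPM in control libraries, and 4 of the 7 rose. Over all tested genes 3.80% rose and 3.91% fell in the same edgeR test. Granulosa markers, which define most of the follicle, overlapped between groups, at 2666 to 4629 CPM in tumor and 3301 to 4295 CPM in control libraries. Adipocyte markers reached 4113, 635 and 2188 CPM in tumor libraries, against 462 to 655 CPM in control libraries, with none of 8 passing. None of these marker genes was at 0 in any library. The part of any of these cell types in the low Wnt10a and Wnt10b was not tested.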

How the data were processed

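RNA of 3 tumor and 3 control ovaries was sequenced as single-end reads of 50 bases, per the labels' protocols. The submitters' processing notes name HISAT2 2.0.4, Bowtie2 2.2.5, RSEM 1.2.12 and GRCm38.p6, with no role stated. The authors deposited estimated counts and FPKM values per gene and estimated counts per transcript, per the file headers. A further 36 columns of values per library were not used. Whether counting used strand is not given in the sources used here.

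Estimated counts were rounded, filtered with filterByExpr, scaled by TMM and compared with edgeR 4.0.16 (quasi-likelihood F test, R 4.3.3), with Benjamini-Hochberg adjustment over 15787 genes at 0.05. The SE is the absolute log2 fold change divided by the square root of F. CPM are scaled by TMM. Counting intervals of ratios are exact. Log2 CPM for likeness used a prior count of 2, and genes of average log2 CPM of at least 0 entered. Sequences came from GENCODE M21 and RefSeq. DESeq2 1.42.0 and limma 3.58.1 served as alternatives. In simulated data on 15618 genes, edgeR recovered 37% of 100 genes changed 2-fold and 70% of 100 changed 4-fold, with 14 false calls.

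The members and lists were chosen with earlier results of these data known. Named genes are the members, all other ligands, called pathway genes or those with the smallest p, a short panel of pathway genes, the 5 most alike, neighbors within 100 kb and markers set beside a result. Dcpp1 was named after its value was seen.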

Additional observations from a re-analysis of the deposited data

How the results depend on the processing

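The low values of Wnt10a and Wnt10b kept their direction under all 13 alternatives, without a test. The contrast chose both genes and their groups did not overlap, so the kept direction adds no support. Wnt10a had log2 fold changes of -1.44 with log2(FPKM + 1) and -3.55 with log2(FPKM + 0.1), where the pseudocount shrinks low genes, and from -6.16 to -4.45 when 1 library was left out. Wnt10b had -4.08 and -6.33 with those pseudocounts, and from -7.66 to -6.63 when 1 library was left out. The counts of calls were less stable, and the cause was not tested. Against 1217 genes and 9 pathway genes, a gene-length correction gave 127 and 2, and DESeq2 gave 3057 and 14. In edgeR, the replicate block gave 0 and 0 calls, with 4233 genes and 17 pathway genes at an unadjusted p under 0.05. Whether the numbers pair the libraries is not given. Deviations from the group mean correlated at 0.237, -0.212 and 0.529 between same-numbered libraries. These values cannot decide it, because the deviations within a group sum to 0. Leaving out 1 library gave 0 to 2605 genes and 0 to 17 pathway genes, with 2605 and 17 without tumor library 1 and 2274 and 13 without control library 2. No call remained without tumor library 3 or control library 1, where 3761 and 3137 genes had an unadjusted p under 0.05, and 3 and 5 genes remained without tumor library 2 and control library 3. The called pathway genes kept their sign under all alternatives and each lost its call in 5 to 7 of them. Calls were followed by name for 36 pathway genes. Among these, Wnt6, Wnt16, Porcn, Fzd7, Lgr6, Gsk3b, Tcf7l1 and Nkd2, not called with all libraries in edgeR, each passed in 1 or 2 alternatives. Other pathway genes that gained a call are not named. The 7 tumor reads of Wnt10a limit the precision of its ratio.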
